A study of Mus musculus with 72 samples.

Results

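The cytosolic ribosomal protein genes were taken by their symbols, as the Rpl and Rps genes followed by a number, the stalk genes Rplp0, Rplp1 and Rplp2, and Rpsa. Rps6 kinases, Rps19bp1 and symbols that hold "-ps" were left out. The rule found 88 of the 35976 gene symbols in 6 of the count tables and 89 of 25239 in the table of E18.5 testes, where Rps23rg1 was added. The rule reads symbols and no measured value. The GENCODE annotation lists 85 of these genes as protein coding, and not Rpl32l, Rpl37rt, Rps23rg1 and Rps4l.

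Each protein of this family occurs once, or as dimers in the stalk, in the large (60S) or the small (40S) subunit of the ribosome, so cells make the proteins in near equal amounts. Many of their mRNAs begin with a run of pyrimidines, through which growth signals set how much of each mRNA is translated. Several members have paralogs: in the male germ line the X chromosome is silenced at meiosis, and autosomal copies of X-linked members, such as Rpl10l for Rpl10 and Rpl39l for Rpl39, are known for their expression there.

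RNA-Seq was run on mouse testes of the first generation (F1) and on testes, livers and ovaries of the second (F2), each with a natural and an IVF group. F1 naturals came from CF-1 females mated in a natural cycle with SJL/B6 males that carried 1 copy of a GFP transgene driven by the CAG promoter. F1 IVF mice came from eggs of superovulated CF-1 females fertilized in vitro with sperm of such males, cultured to blastocysts and moved to pseudopregnant recipients. Newborns of the adult cohorts were delivered by C-section, later for IVF than for naturals, and fostered. F2 mice were conceived by mating F1 natural or F1 IVF males with CF-1 females, so in the F2 groups "IVF" names the sire and no F2 embryo was itself cultured. The natural and IVF groups held 4 and 6 E18.5 testes in F1, 5 and 5 testes of 12 weeks, and 4 and 6 testes of 39 weeks. For the F2 animals at 12 weeks they held 5 and 7 testes, 5 and 5 male livers, 5 and 6 female livers, and 4 and 5 ovaries. All tissues were bulk samples, in which fewer cells of a type and less RNA per cell cannot be told apart, and p-values measure the spread between the animals of these cohorts. The labels name no sire or litter, and no test held a term for either. The paper counts F2 pups from 4 breeding pairs per group over 4 litters, and does not say which animals were sequenced. F2 animals, sons and daughters among them, may share a sire or litter. Their p-values therefore do not measure the spread between sires.

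Library totals ran from 543745 to 90441392 counts. At E18.5 the naturals (2904727 to 4869139 counts) were all shallower than the IVF group (8500054 to 15745480). In male livers the naturals held 10391074 to 44069283 counts and the IVF group 543745 to 12624673. The 13 mitochondrially encoded transcripts, a sign of RNA quality and tissue state, also separated the liver groups: their share of counts was 2.74% to 3.72% in male naturals against 7.20% to 36.5% in male IVF, and 5.59% to 16.1% in female naturals against 2.01% to 3.82% in female IVF. Among the IVF male livers 2 stood apart: IVF 2 held 2137355 counts with a mitochondrial share of 29.2%, and IVF 3 held 543745 with 36.5%. The male liver counts are given with and without them. Spermatid markers summed to 18678 to 20482 CPM (counts scaled to library size) in natural testes at 12 weeks against 6.57 to 14.4 at E18.5, hepatocyte markers to at least 75133 CPM in every liver, and granulosa and luteal markers to 6479 to 11082 CPM in natural ovaries.

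The ribosomal protein genes together took the largest part of the counts in the ovary and the smallest in female liver and F2 testis. In naturals their summed share was 3.36% ± 0.389 (SD, n = 4) in ovary and 3.08% ± 0.0774 (n = 4) in E18.5 testis, and it was 0.915% ± 0.0437 (n = 5) in F2 testis and 0.904% ± 0.0917 (n = 5) in female liver, with overlapping values in the last pair. Between these lay 39-week testis at 1.30% ± 0.218 (n = 4), male liver at 1.30% ± 0.130 (n = 5) and 12-week testis at 1.09% ± 0.0497 (n = 5). The low rank of female liver depended on the denominator. Over the genes other than mitochondrial transcripts and the most counted genes, the natural mean was 1.39% in female liver. By that measure it was 0.948% in F2 testis, 1.13% and 1.36% in 12-week and 39-week testis, and 1.56% in male liver. Per kilobase of transcript the median member had a mean level of 393 CPM per kb in ovary, 327 in E18.5 testis, 151 in male liver, 144 and 119 in 39-week and 12-week testis, 103 in female liver and 98.7 in F2 testis. These levels are those of the naturals, and so are the highest members per kilobase, which also differed by tissue. Rplp1, a stalk protein, led in male liver (711 CPM per kb) and in ovary (1538 CPM per kb). Rpl41, the smallest protein of the large subunit, led in F2 testis (719 CPM per kb), Rpl8 at E18.5 (1252 CPM per kb) and Rpl4, which lines the exit tunnel, in female liver (617 CPM per kb). Both leaders of the livers changed between natural and IVF groups. The log2 fold change of Rplp1 was −1.36 in male and 1.13 in female liver, and that of Rpl4 0.98 and −0.85.

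**Figure D1:**
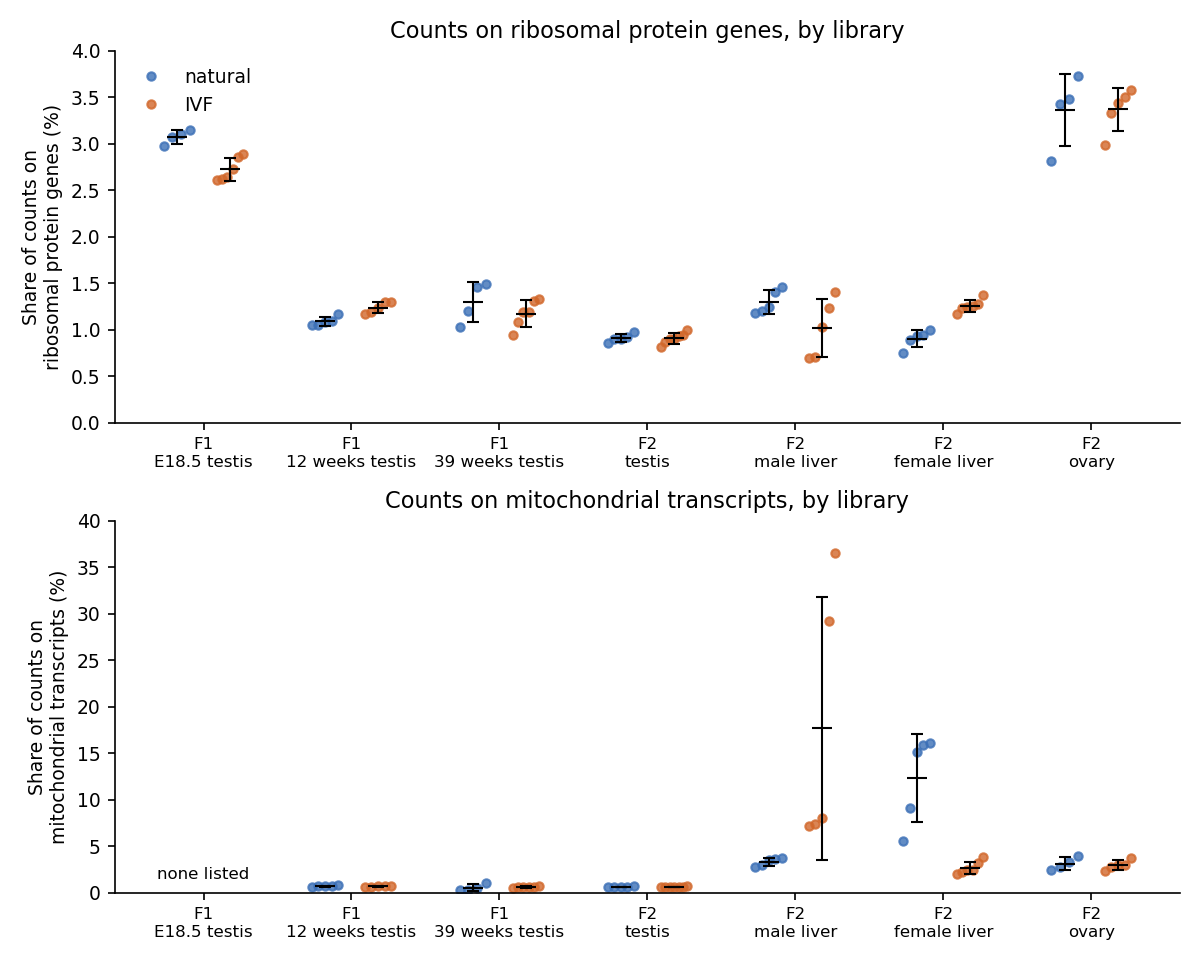
Share of a library's counts taken by the ribosomal protein genes (upper panel, percent) and by mitochondrial transcripts (lower panel, percent); each point is 1 library, natural in blue and IVF in orange, with the mean and SD of each group. The ribosomal protein share was lower in IVF than in naturals at E18.5 and higher in female livers, and the mitochondrial shares of the liver groups did not overlap.

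Between IVF and natural groups the share moved in different directions by tissue. At E18.5 it was 2.97% to 3.15% in naturals and 2.61% to 2.89% in IVF, with no overlap. In 12-week testis it was 1.05% to 1.17% against 1.17% to 1.30%, with the lowest IVF testis just below the highest natural one. In female liver it was 0.756% to 0.998% against 1.17% to 1.37%, with no overlap. In male liver it was 1.18% to 1.47% in naturals and 0.702% to 1.40% in IVF, and in 39-week testis (IVF mean 1.18% ± 0.143, n = 6), F2 testis (0.911% ± 0.0591, n = 7) and ovary (3.37% ± 0.231, n = 5) the groups overlapped. A share of counts depends on the other genes in the library. Taken over the genes other than mitochondrial transcripts and the most counted genes, the IVF minus natural difference was −0.135 percentage points in male liver in place of −0.282, and 0.254 in female liver in place of 0.355.

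The largest differences among members were between tissues, and they lay in the X-linked members and their autosomal paralogs. The start sites of 3 such pairs and of Rps4x are shown to set the X-linked genes beside their autosomal copies, in the mm10 build with RefSeq starts, with 10 bases before the start in lower case and the first 20 transcribed bases in capitals.
Rpl10, chrX:74270806-74270835, plus strand: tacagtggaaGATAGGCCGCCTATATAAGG
Rpl10l, chr12:66284382-66284411, minus strand: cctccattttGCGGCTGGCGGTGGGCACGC
Rpl39, chrX:37085203-37085232, minus strand: gctccgcctcTAGCGACTTCTTCTAATCGC
Rpl39l, chr16:10170218-10170247, plus strand: aggcctttccGGATTTCCGGTGGTCGCCAT
Rpl36a, chrX:134585644-134585673, plus strand: cccaggcaccGCCTATAAACTTCCGTTGCG
Rpl36al, chr12:69184048-69184077, minus strand: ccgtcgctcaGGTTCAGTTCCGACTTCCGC
Rps4x, chrX:102189372-102189401, minus strand: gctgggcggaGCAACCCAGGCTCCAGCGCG
For Rpl39l the start shown lies inside the gene, downstream of its outermost start. The windows of a pair differ in sequence although the proteins are close relatives. Rps4l, the autosomal relative of Rps4x on chromosome 6, is a transcribed pseudogene in RefSeq, and reads that fit both copies of a pair may have been counted for either or for neither.

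In adult testes the autosomal copy held most of the counts of each pair, and in the other tissues the X-linked one did, except for Rpl36al in the livers. Of the counts of Rpl10 and Rpl10l together, which encode a protein at the subunit interface needed to join the subunits, Rpl10l held 84.5% to 89.0% in natural testes at 12 weeks, 84.9% to 90.7% at 39 weeks and 87.1% to 90.4% in F2. At E18.5, before meiosis begins in the male, Rpl10l held 1.36% to 3.32%, and in ovary 0.0141% to 0.0309%. Rpl39l, whose protein lies in the exit tunnel, held 94.1% to 95.5% of its pair at 12 weeks, 96.0% to 97.0% at 39 weeks and 95.3% to 96.3% in F2 testis. Its share was 3.70% to 7.05% at E18.5 and 0.210% to 0.312% in ovary. The adult testis ranges of both genes lay far above every other tissue. In male livers Rpl10l held up to 0.278% and Rpl39l up to 1.70% of their pairs, from at most 10 and 12 counts in a library. Over the 11 female livers Rpl10l had no count at all, which with a floor of 3 counts per library allows levels of up to 0.0332 to 0.760 CPM, and Rpl39l had 2 counts in 1 IVF library.

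Rps4l and Rpl36al behaved less like switches. Rps4l held 87.4% to 89.6% of its pair with Rps4x in natural testes at 12 weeks, and also 6.81% to 11.1% at E18.5, 8.01% to 15.2% in male liver, 4.18% to 10.5% in female liver and 1.47% to 2.80% in ovary. Rpl36al held 88.0% to 92.7% of its pair with Rpl36a at 12 weeks, but still 62.8% to 67.3% in male liver, 63.9% to 69.4% in female liver, 39.996% to 43.3% in ovary and 26.8% to 29.7% at E18.5. The 4 X-linked members Rpl10, Rpl39, Rps4x and Rpl36a summed to 4.33% to 4.91% of ribosomal protein counts in natural testes at E18.5 and to 0.444% to 0.534% at 12 weeks. Their sum was 0.374% to 0.530% at 39 weeks, 0.469% to 0.536% in F2 testis, 4.31% to 4.94% in male liver, 3.61% to 4.61% in female liver and 4.90% to 5.11% in ovary.

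**Figure D2:**
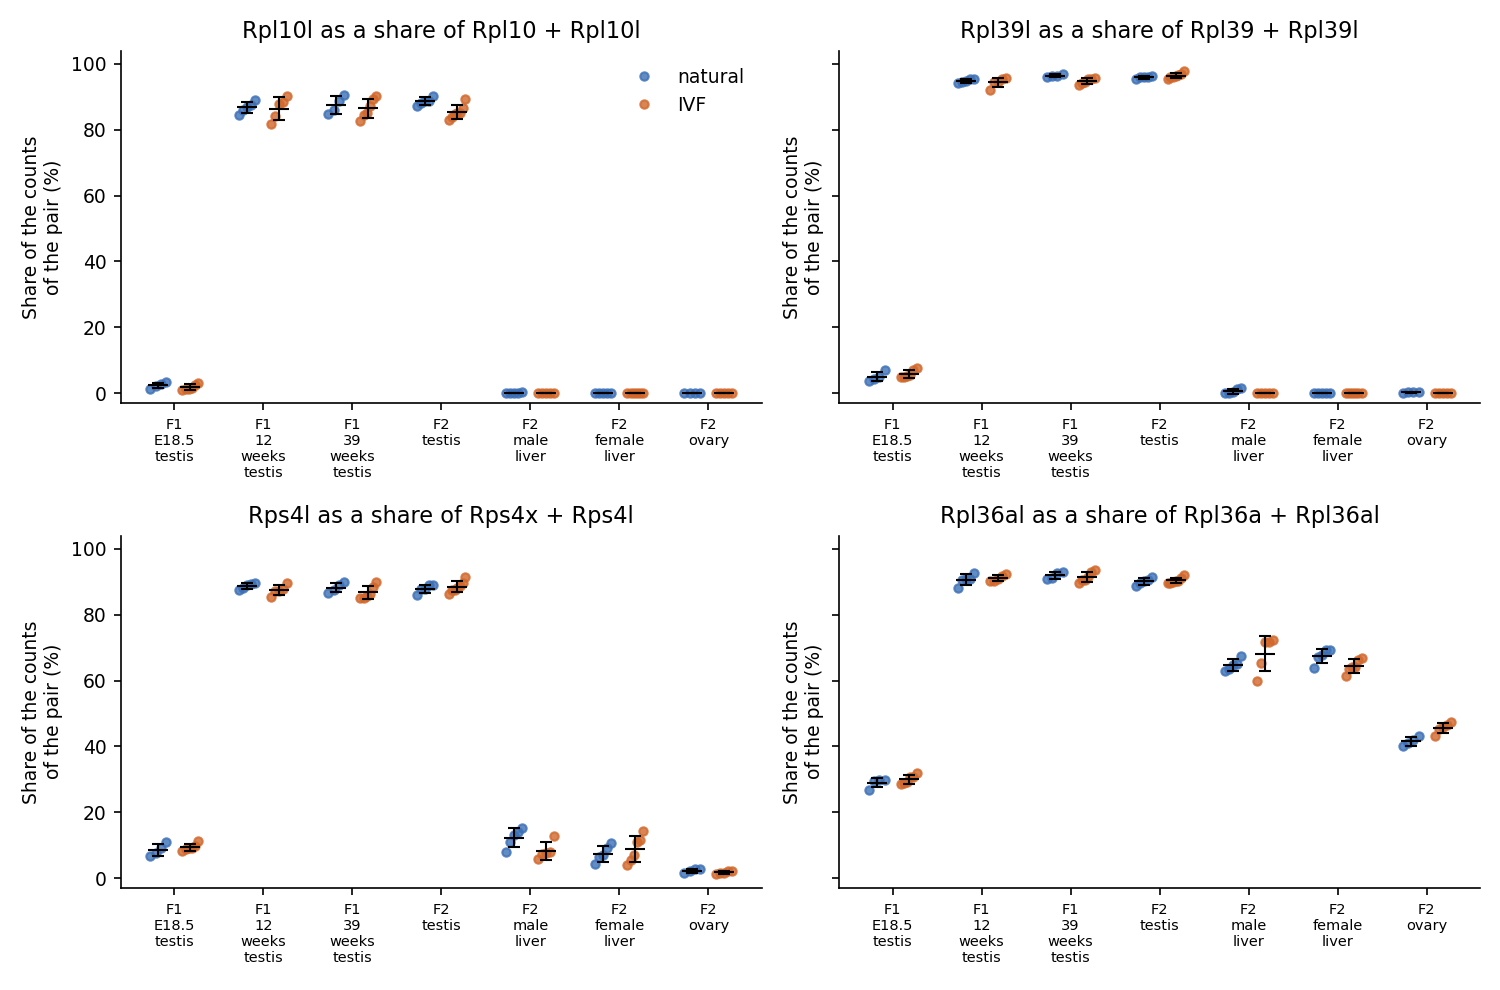
Share of a pair's counts that fell on the autosomal paralog (percent, vertical axis) in each library, by tissue and age, for Rpl10l with Rpl10, Rpl39l with Rpl39, Rps4l with Rps4x and Rpl36al with Rpl36a. Each point is 1 library, natural in blue and IVF in orange: adult testes sit above 80% in all 4 panels, and Rpl36al has intermediate shares in livers and ovaries.

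IVF did not move these paralogs past the test in any testis comparison, except Rpl36al at 12 weeks (described with that comparison). Rpl10l in F2 testis had 164, 164, 168, 172 and 165 CPM in naturals 1 to 5 and 98.4 to 175 CPM in IVF. The log2 fold change was −0.38 (SE 0.12, adjusted p = 0.143), with overlapping groups. Its share of the pair was 83.1% to 89.5% in IVF, against 87.1% to 90.4% in naturals. At 39 weeks the share of Rpl39l in its pair did not overlap, at 96.0% to 97.0% in naturals and 93.7% to 95.9% in IVF. The log2 fold changes of Rpl39l were 0.10 at E18.5 (adjusted p = 0.873), 0.24 at 12 weeks (adjusted p = 0.236), −0.21 at 39 weeks (adjusted p = 0.635) and 0.01 in F2 testis (adjusted p = 0.972).

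Set against the livers of the same F2 generation, natural testis had less of nearly every ribosomal protein mRNA and more of 4 members. Of 88 members tested, 80 were lower and 4 higher in testis than in male liver (adjusted p under 0.05 by edgeR's quasi-likelihood test). Of all genes tested 34.4% were lower and 58.1% higher, and the members' median log2 difference was −1.54 beside 1.25 over all genes. Those not called were Rpl32l, Rps24, Rplp0 and Rps20. Rpl10l had 0.754, 0, 0, 0.125 and 1.26 CPM in the livers and 124, 123, 126, 129 and 123 CPM in the testes, with no overlap (log2 difference 8.67, SE 0.37, adjusted p = 4.03e-10). Rpl39l had 0 to 1.13 CPM in the livers and 70.8 to 84.5 CPM in the testes (log2 difference 8, SE 0.38). These fitted differences depend on the prior count, because the livers held few or no counts of either gene. Summed spermatid markers ran from 0.168 to 168 CPM over the natural male livers, and their part in the counts of Rpl10l there was not tested. Rps4l had 27.5 to 42.4 CPM in livers and 76.8 to 85.8 CPM in testes (1.13, SE 0.10, adjusted p = 9.16e-08). The remaining higher member was Rpl3l, a copy of Rpl3 known from muscle (2.72, SE 0.37, adjusted p = 8.05e-06).

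The X-linked members showed the largest falls. Rpl10 had 473, 402, 363, 409 and 451 CPM in livers and 15.6, 13.1, 17, 16.3 and 18.1 CPM in testes, so the groups lay far apart (−4.71, SE 0.12, adjusted p = 9.18e-14). Rps4x, a small-subunit protein, went from 235 to 316 CPM in livers to 9.49 to 13.1 CPM in testes (−4.59). Rpl36a went from 66.3 to 82.3 CPM to 3.21 to 4.7 CPM (−4.20), and the log2 difference of Rpl39 was −4.01. The split of calls was 14 higher and 56 lower when values were scaled to library totals in place of TMM factors, and 7 and 73 with DESeq2's size factors.

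Against ovary the same F2 testes gave 4 members higher and 84 lower, of 88 tested. These testes also served in the comparison with liver, so the comparisons share libraries. Of all genes tested 48.8% were higher and 39.6% lower in testis. Rpl10l had 0.0792, 0.166, 0.0952 and 0.135 CPM in ovaries against 188, 188, 192, 198 and 189 CPM in testes (10.68, SE 0.15), from at most 4 counts in an ovary. Rpl39l differed by 8.62, Rps4l by 3.09 and Rpl3l by 2.90 on the log2 scale. Rps4x had 608, 601, 677 and 619 CPM in ovaries and 14.4, 17.1, 19.8, 16.9 and 16.5 CPM in testes (−5.21), with no overlap. The ovary also differed from female liver, with 38 members higher and 19 lower of 85 tested, beside 44.8% and 32.2% of all genes. That split depended on the scaling: it was 78 and 1 with library totals and 44 and 15 with DESeq2's size factors. Rps14, a protein of the small subunit, was higher in ovary (3.11), as were Rpl13 (2.03) and Rps19 (1.94), whereas Rps27l, a paralog of Rps27, was lower (−2.54), as was Rpl36al (−1.93). Rpl5 was lower at −1.01 with TMM factors and higher at 0.77 with library totals. The natural female livers used here had mitochondrial shares of 5.59% to 16.1%, and between the female liver groups Rps14, Rpl13 and Rps19 themselves differed by 2.57, 1.56 and 1.44 on the log2 scale, lower in these naturals. The part of the livers' state in the difference between ovary and liver was not tested.

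From E18.5 to 12 weeks in natural F1 testes 64 members fell and 17 rose of 88 tested, beside 39.2% lower and 45.1% higher over all genes. The median log2 difference of the members was −0.73, and that of all genes 0.15. Of the 17, 4 (Rps27, Rpl30, Rpl26 and Rps27rt) were listed near 0 in the E18.5 table, which was counted on another gene annotation, so their rise is not read. Rpl39l had 8.22, 6.27, 4.21 and 4.03 CPM at E18.5 and 170 to 220 CPM at 12 weeks (5.03, SE 0.17, adjusted p = 2.54e-14). Rpl10l rose by 4.75, Rps4l by 1.83 and Rpl36al by 0.64 on the log2 scale. Rps4x had 529, 565, 549 and 501 CPM at E18.5 and 20.5 to 24.3 CPM at 12 weeks (−4.55, adjusted p = 4.8e-17). Rpl36a (−3.94), Rpl39 (−3.38) and Rpl10 (−3.28) fell as well. Age is bound to the counting table here, and the 2 cannot be told apart for members whose gene models differ.

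The comparison of IVF with natural F1 testes asks whether the whole procedure, with superovulation, culture and transfer, left a change in the offspring's testis. Its steps cannot be told apart, nor, in the adults, the later delivery of the IVF group. At E18.5 2 of 87 members fell and none rose, beside 0.357% of all genes lower and 0.818% higher. Rpl31, which lies by the exit of the peptide tunnel, had 148, 162, 149 and 143 CPM in naturals and 115 to 128 CPM (median 122) in IVF. All 6 IVF testes were below all 4 naturals (−0.31, SE 0.06, adjusted p = 0.0372). Rpl23, a large-subunit protein that also binds Mdm2, had 525, 490, 501 and 483 CPM in naturals and 387 to 439 CPM (median 421) in IVF, again with no overlap (−0.26, SE 0.06, adjusted p = 0.0459). Neither change reached 1.5-fold. Each call was lost when certain single libraries were left out: that of Rpl31 without any of 8 of the 10, kept only without natural 1 or natural 3, and that of Rpl23 without any of 9 of the 10, kept only without natural 1.

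Small shifts in 1 direction ran through most of the family at E18.5. The log2 fold change was below 0 for 77 of 87 members (88.5%, beside 50.7% of all genes), with a median of −0.16 beside 0.00. At an unadjusted p under 0.05, 46 members (52.9%) were lower and none higher, where 8.54% of all genes were lower and 9.13% higher. The groups did not overlap, with IVF lower, for 17 members (19.5%, beside 2.58% of all genes), among them Rpl5, Rpsa and Rpl8. Ribosomal protein mRNAs are short (median 831.5 nt), and over all genes the log2 fold change rose with transcript length at E18.5 (Spearman rho 0.28, over genes, which are not replicates) and fell with GC content (rho −0.37). With the length trend removed the members' median was −0.03 and none was called, and with the GC trend removed the median was −0.13. The depth of the groups also did not overlap at E18.5, and with depth as a covariate 58 of 87 members were below 0 and none was called, so depth and conception cannot be told apart.

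At 12 weeks the shift ran the other way. Of 88 members 1 rose and none fell, beside 0.0746% of all genes higher and 0.671% lower. Rpl36al had 60.7, 54.6, 57.3, 57.2 and 52.3 CPM in naturals and 69.6, 68.3, 80.1, 75.3 and 73.4 CPM in IVF, with no overlap (0.38, SE 0.07, adjusted p = 0.0189). Its call was lost without natural 3, natural 4, natural 5 or IVF 4. The log2 fold change was above 0 for 85 of 88 members (96.6%, beside 51.9% of all genes), with a median of 0.20 beside 0.01. At an unadjusted p under 0.05, 50 members (56.8%, beside 12.9% of all genes in either direction) passed. IVF lay above the naturals with no overlap for 8 (9.09%, beside 0.915%): Rpl36al, Rps21, Rps25, Rps4x, Rpl31, Rpl37, Rps15a and Rps29. Over all genes the log2 fold change fell with length (rho −0.32) and rose with GC content (rho 0.17), and the members' median was 0.11 with that trend removed.

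At 39 weeks none of 88 members passed edgeR's test, beside 0.00996% of all genes, and 12 (13.6%) passed at an unadjusted p under 0.05, beside 10.5% of all genes. DESeq2 called 1 member. The log2 fold change was below 0 for 77 members (87.5%, beside 49.3% of all genes), with a median of −0.17. The groups did not overlap, with IVF lower, for Rpl27 and Rpl7a (2.27% of members, beside 1.56% of all genes). Rpl27, a large-subunit protein, had 48.5, 44.9, 34.8 and 41 CPM in naturals and 18.8 to 33.2 CPM in IVF, the member nearest to a call (−0.71, SE 0.15, adjusted p = 0.15). Over all genes the rho of the log2 fold change was −0.01 with length and −0.44 with GC content, and with the GC trend removed the members' median was −0.16. The shift below 0 rested on naturals 1 and 2, which stood apart from the other naturals. They were also much closer to each other (chi-square per gene 3.06) than any other pair of naturals (27.8 to 63.7). Their ribosomal protein shares were 1.46% and 1.49%, with 1.03% and 1.21% in naturals 3 and 4, and their mitochondrial shares 0.305% and 0.281%, with 0.534% and 1.10%. Without these 2 libraries 33 of 88 members (37.5%, beside 50.1% of all genes) were below 0, with a median of 0.05, and none was called. The naturals (11438213 to 12705316 counts) were all shallower than the IVF group (14033176 to 23318391), so depth and conception cannot be told apart here either. With depth as a covariate 82 members were below 0, with a median of −0.39.

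**Figure D3:**
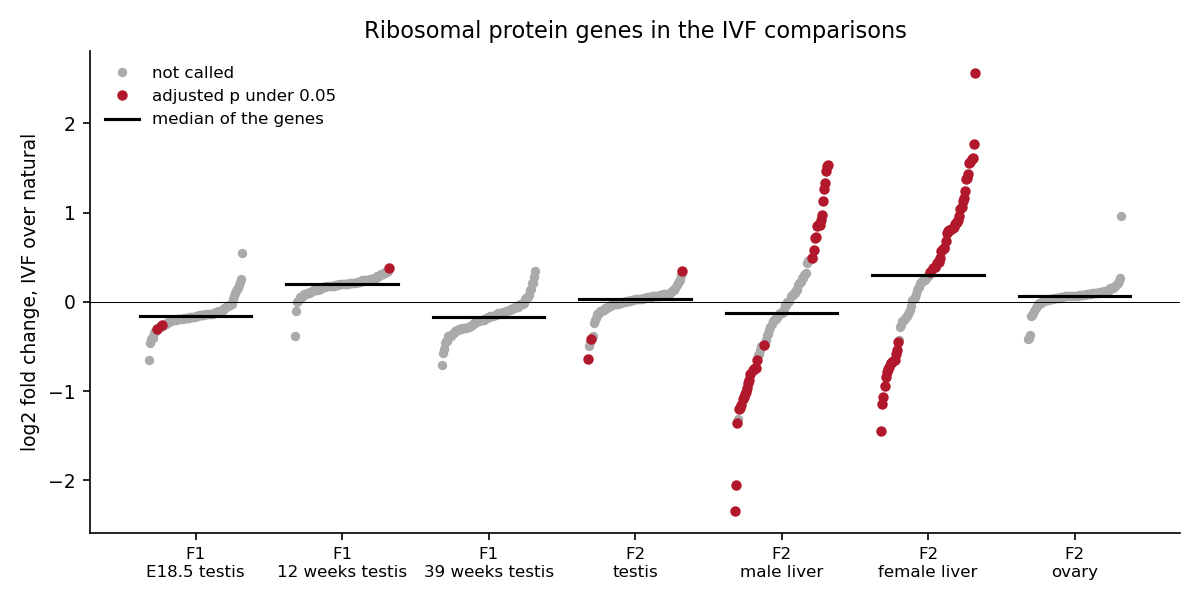
Log2 fold change of IVF over natural (vertical axis) for every tested ribosomal protein gene in the 7 comparisons; each point is 1 gene, red where the adjusted p was under 0.05, and the bar is the median over members. Members of the F1 testes lay mostly below 0 at E18.5 and, with all libraries, at 39 weeks (33 of 88 below 0 without naturals 1 and 2), and above 0 at 12 weeks, with few calls, and the livers had the widest spread.

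In F2 testis 1 member rose and 2 fell of 88, beside 0.942% of all genes higher and 0.667% lower, and the median log2 fold change was 0.03. At an unadjusted p under 0.05 11 members (12.5%) passed, beside 13.9% of all genes. Rpl21, a large-subunit protein, had 64.3, 62.1, 70.5, 67.8 and 64 CPM in naturals and 71.4 to 95.5 CPM (median 87.2) in IVF, with no overlap (0.34, SE 0.07, adjusted p = 0.0116). Its call was lost without natural 2. Rpl27 had 25.1, 19, 24.5, 23.4 and 22.8 CPM in naturals and 15.7 to 19.8 CPM in IVF, with an overlap at natural 2 (−0.41, adjusted p = 0.0136). Rpl34 had 39, 34.8, 40.2, 22.4 and 36.5 CPM in naturals and 15.3 to 24.5 CPM in IVF, with an overlap at natural 4 (−0.64, SE 0.14, adjusted p = 0.0295). Both fell and were singled out after their values were seen.

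In F2 ovary none of 85 members passed edgeR's test, as for all genes (0%), and 5 passed at an unadjusted p under 0.05, where 10.6% of all genes did. The log2 fold change was above 0 for 71 members (83.5%, beside 47.7% of all genes), with a median of 0.07, or −0.01 with the length trend removed. All natural ovaries (17372532 to 49192804 counts) were deeper than the IVF ovaries (11489461 to 16553139). With depth as a covariate 73 of 85 members were below 0 in place of 14, with a median of −0.06, so the direction of this small shift depended on that setting. DESeq2 called 1 member. Rpl29, a large-subunit protein, had 47.8, 52.3, 66.5 and 56.8 CPM in naturals and 131, 138, 62.8, 64.9 and 148 CPM in IVF, so 3 of 5 IVF ovaries were high and 2 were not (0.96, SE 0.28, adjusted p = 0.38).

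The F2 livers were the tissues in which many members changed, and in the male they changed in both directions. In male liver 15 of 85 members were higher and 20 lower in offspring of IVF sires, 17.6% and 23.5% beside 16.1% and 18.4% of all genes. These shares lie close to the background, so the count alone does not set the family apart. Of the members called, 13 and 19 also passed 1.5-fold (13.9% and 17.2% of all genes). The median was −0.12 and the members ranged from −2.34 to 1.54. Rpl10l, Rpl39l and Rpl3l were too low to be tested in livers.

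Rpl14, an outer large-subunit protein, had 136, 116, 141, 132 and 124 CPM in male natural livers and 316, 394, 400, 267 and 485 CPM in IVF, with no overlap (1.52, SE 0.18, adjusted p = 6.81e-05). Rpl23 had 180, 170, 193, 182 and 176 CPM against 378, 470, 410, 306 and 409 CPM (1.13, SE 0.15, adjusted p = 0.00013). Rpl5, which with Rpl11 and the 5S rRNA forms a particle that binds Mdm2 when ribosome assembly fails, had 92.7, 83.4, 97.2, 92.3 and 77.4 CPM against 188, 164, 147, 144 and 187 CPM (0.91, SE 0.15, adjusted p = 0.000374). All IVF livers were above all natural livers for these 3 genes. Rps14, the small-subunit gene lost in the 5q- syndrome, had 219, 151, 145, 142 and 208 CPM in naturals and 39.2, 21.1, 24.1, 32.9 and 45.5 CPM in IVF (−2.34, SE 0.22, adjusted p = 2.85e-05). Rpl13 had 187, 148, 134, 140 and 170 CPM against 63.8, 56.6, 111, 54.7 and 76.8 CPM (−1.15, SE 0.20, adjusted p = 0.000454). Rplp1 had 329, 281, 240, 306 and 409 CPM against 157, 75.9, 82, 92.9 and 190 CPM (−1.36, SE 0.25, adjusted p = 0.000763). For these 3 no IVF liver reached a natural one. Called members were named here only if their groups did not overlap, so that trait was set by the choice. IVF 2 and IVF 3, the libraries of fewest counts, were at the extremes for some of these genes and not for others. Without them 27 members were higher and 20 lower, the median was 0.13, and 33 of the 35 members called with all libraries were called. The shares of all genes in that fit are not given here, so these counts are not read as a trait of the family.

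In female liver more members were higher than lower: 36 of 85 rose (42.4%, beside 25.4% of all genes) and 15 fell (17.6%, beside 23.6%). Of these, 28 and 13 also passed 1.5-fold (21.6% and 17.8% of all genes). The median was 0.30, and the members ranged from −1.44 to 2.57. Rps19, the small-subunit gene most often mutated in Diamond-Blackfan anaemia, had 21.9, 33, 16.9, 26.2 and 18.2 CPM in naturals and 50.4 to 72.1 CPM in IVF, with no overlap (1.44, SE 0.18, adjusted p = 2.31e-05). Rpl18, of the large subunit, had 31.7, 62, 40.1, 52.5 and 36.5 CPM in naturals and 154, 80.9, 151, 132, 141 and 164 CPM in IVF (1.61, SE 0.20, adjusted p = 2.5e-05). Rps13, of the small subunit, had 43.9, 44.7, 43.5, 45.6 and 32.1 CPM in naturals and 67 to 94.7 CPM in IVF (1.04, SE 0.13, adjusted p = 2.92e-05). For these 3 genes every IVF liver was higher than every natural liver, a trait by which they were picked.

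Rpl23 fell in female liver, from 594, 251, 505, 423 and 345 CPM in naturals to 173 to 214 CPM in IVF (−1.14, SE 0.18, adjusted p = 0.000116). Rps12, in the beak of the small subunit, had 268, 207, 278, 308 and 212 CPM in naturals and 141 to 165 CPM in IVF (−0.73, SE 0.13, adjusted p = 0.000282). Rpl22, an RNA-binding large-subunit protein, had 274, 95.2, 179, 155 and 145 CPM in naturals and 74.5 to 88.2 CPM in IVF (−1.07, SE 0.20, adjusted p = 0.000348). No natural liver was as low as an IVF one for these genes, again a trait by which they were picked. Natural 2 was the nearest for each. Natural 2 had the lowest mitochondrial share of the naturals (5.59%) and IVF 2 the highest of the IVF group (3.82%). The largest rise was that of Rps14, with 14.6, 38, 23.2, 27.6 and 16 CPM in naturals and 183, 60.6, 157, 129, 156 and 172 CPM in IVF (2.57, SE 0.31, adjusted p = 3.72e-05). Here too natural 2 was the highest natural and IVF 2 the lowest IVF liver.

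The members that changed in both livers changed in opposite directions. Male and female livers share no library, and their log2 fold changes had a Spearman rho of −0.94 over the 85 members, beside −0.80 over 11825 genes, a description over genes of 1 set of libraries. In all, 19 members (22.4%, beside 15.6% of all genes) were lower in male and higher in female IVF liver, and 12 (14.1%, beside 13.3%) were higher in male and lower in female. No member was called the same way in both, as were 13 of all genes (0.11%). The sign was opposite for 72 members (84.7%, beside 82.2% of all genes). A further 20 members were called in female alone, 4 in male alone (Rpl26, Rps6, Rps3a1 and Rps27rt), and 30 in neither.

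**Figure D4:**
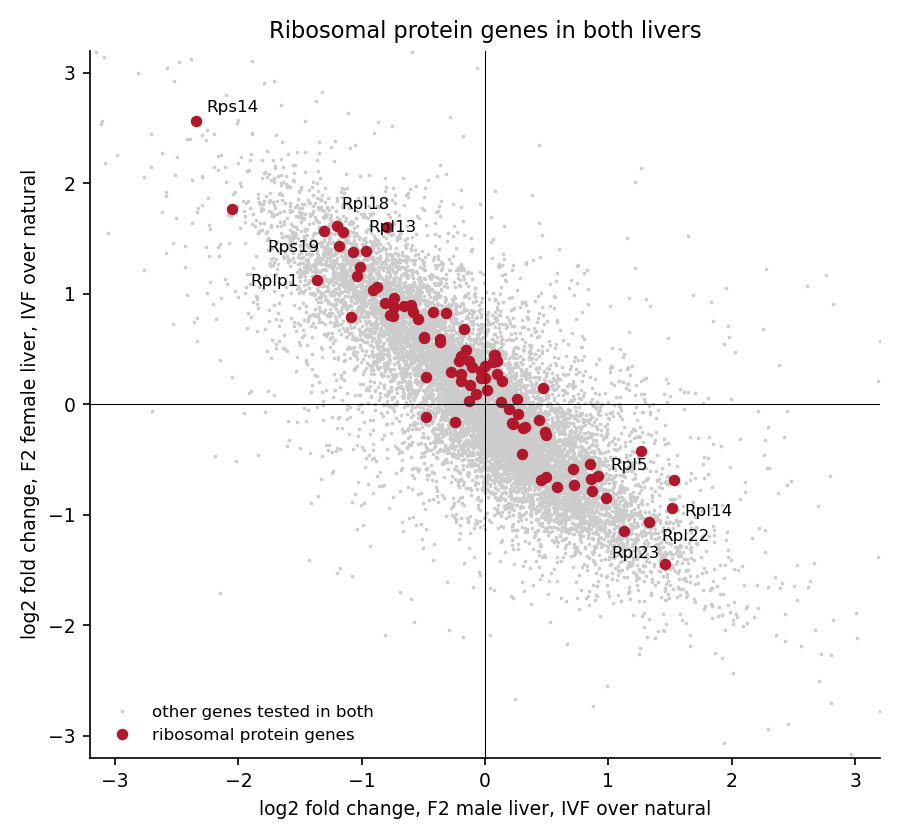
Log2 fold change of IVF over natural in male liver (horizontal axis) and female liver (vertical axis) for the 85 ribosomal protein genes (coloured) and the other genes (grey, those beyond 3.2 in either direction not drawn). The members lie along a falling diagonal, from Rpl14, Rpl23 and Rpl5 at the lower right to Rps14 at the upper left.

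Tested directly, the IVF effect in male liver minus that in female liver passed for 53 of 85 members, 20 above 0 and 33 below, beside 54% of all genes (7056 of 13073). The members' shares were 23.5% above 0 and 38.8% below, beside 25.9% and 28.1% of all genes. The difference was 2.25 for Rpl23 (SE 0.24, adjusted p = 2.38e-08), 2.44 for Rpl14 (SE 0.27, adjusted p = 4.6e-08) and 1.55 for Rpl5 (SE 0.20, adjusted p = 3.95e-07). It was −4.91 for Rps14 (SE 0.40, adjusted p = 3.22e-09), −2.72 for Rpl13 (SE 0.29, adjusted p = 2.7e-08) and −2.82 for Rpl18 (SE 0.33, adjusted p = 8.93e-08).

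By place in the ribosome, both subunits held members of either direction. In male liver 9 of 51 large-subunit members rose (17.6%) and 13 fell (25.5%), and 6 of 34 small-subunit members rose (17.6%) and 7 fell (20.6%), beside 16.1% and 18.4% of all genes. In female liver 20 of the large-subunit members rose (39.2%) and 12 fell (23.5%), and 16 of the small-subunit members rose (47.1%) and 3 fell (8.82%), beside 25.4% and 23.6% of all genes. The 3 stalk genes, whose proteins recruit the elongation factors, shared a direction in each sex. All 3 fell in male liver, Rplp0 by 0.81, Rplp1 by 1.36 and Rplp2 by 0.88 on the log2 scale, and all 3 rose in female liver, by 0.92, 1.13 and 1.07. Their transcripts held 52.9%, 57.3% and 55.0% GC, beside a median of 50.7% over the members. The direction of change moved with GC content in both livers, and Rplp1 was not called in male liver with that trend removed (described below). Of the 5S particle Rpl5 changed, and Rpl11 had log2 fold changes of −0.03 (adjusted p = 0.917) and 0.30 (adjusted p = 0.0756). Of the exit tunnel, Rpl4 rose in male (0.98, adjusted p = 0.000516) and fell in female liver (−0.85, adjusted p = 0.000698), whereas Rpl17 passed in neither (0.31 and −0.22). Rpl39 fell in female liver (−0.68, adjusted p = 0.00266) and had a log2 fold change of 0.45 in male liver (adjusted p = 0.065). The male and female effects on Rpl39 differed (1.13, SE 0.24, adjusted p = 0.000327). Of 16 genes linked to Diamond-Blackfan anaemia or the 5q- syndrome, 2 rose (12.5%, beside 16.1% of all genes) and 5 fell (31.2%, beside 18.4%) in male liver. In female liver 5 rose (31.2%, beside 25.4%) and 2 fell (12.5%, beside 23.6%).

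Of the X-linked members Rpl10 fell in male (−1.04, SE 0.29, adjusted p = 0.0124) and rose in female liver (1.16, SE 0.18, adjusted p = 0.0001), and Rps4x passed in neither (−0.04 and 0.23). The summed share of the 4 X-linked members was 4.31% to 4.94% of ribosomal protein counts in male naturals and 2.78% to 4.18% in male IVF, and it was 3.61% to 4.61% and 4.39% to 5.13% in females, where the groups overlapped. Rpl36al fell in female liver (−0.66, adjusted p = 0.000809) and had a log2 fold change of 0.50 in male liver (adjusted p = 0.0549). Some paralog pairs also shifted in balance. Rps27l, a p53 target, held 38.04% to 44.1% of its pair with Rps27 in male natural livers and 60.1% to 85.3% in IVF. In female livers it held 61.3% to 79.7% in naturals and 33.4% to 47.1% in IVF. The groups did not overlap in either sex. Rps27l rose in male (0.58, adjusted p = 0.017) and fell in female liver (−0.75, adjusted p = 0.000418), while Rps27 fell in male (−1.07, adjusted p = 0.00225) and rose in female (1.38). Rpl22l1 held 17.1% to 30.4% of its pair with Rpl22 in male naturals and 2.08% to 15.4% in male IVF. In females it held 3.44% to 8.50% in naturals and 6.12% to 20.2% in IVF, with an overlap. Its own log2 fold change passed in neither sex (−0.48 and 0.24), and that of Rpl22 was 1.33 in male liver (adjusted p = 0.000549).

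GC content moved with the direction of change. The median GC of the transcript was 54.8% for the members lower in male and higher in female liver and 49.2% for those changed the other way, with 51.7% for those called in female alone and 50.7% for those not called. Over the members the Spearman rho between GC and log2 fold change was −0.41 in male and 0.48 in female liver, and over all genes −0.61 and 0.72. With the GC trend of all genes removed, 20 members rose and 9 fell in male liver (median 0.12), and 26 rose and 17 fell in female liver (median 0.04). In that fit Rpl14 (1.86) and Rps14 (−1.81) in male liver, and Rpl18 (0.70), Rps13 (0.85), Rps19 (0.45), Rpl23 (−0.79), Rps12 (−1.08) and Rpl22 (−0.98) in female liver passed. Rpl13 (−0.21, adjusted p = 0.702) and Rplp1 (−0.51, adjusted p = 0.101) in male liver did not. Rpl23 and Rpl5 in male liver are not given for that fit. Nor are the shares of all genes, so its counts are not read as a trait of the family.

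**Figure D5:**
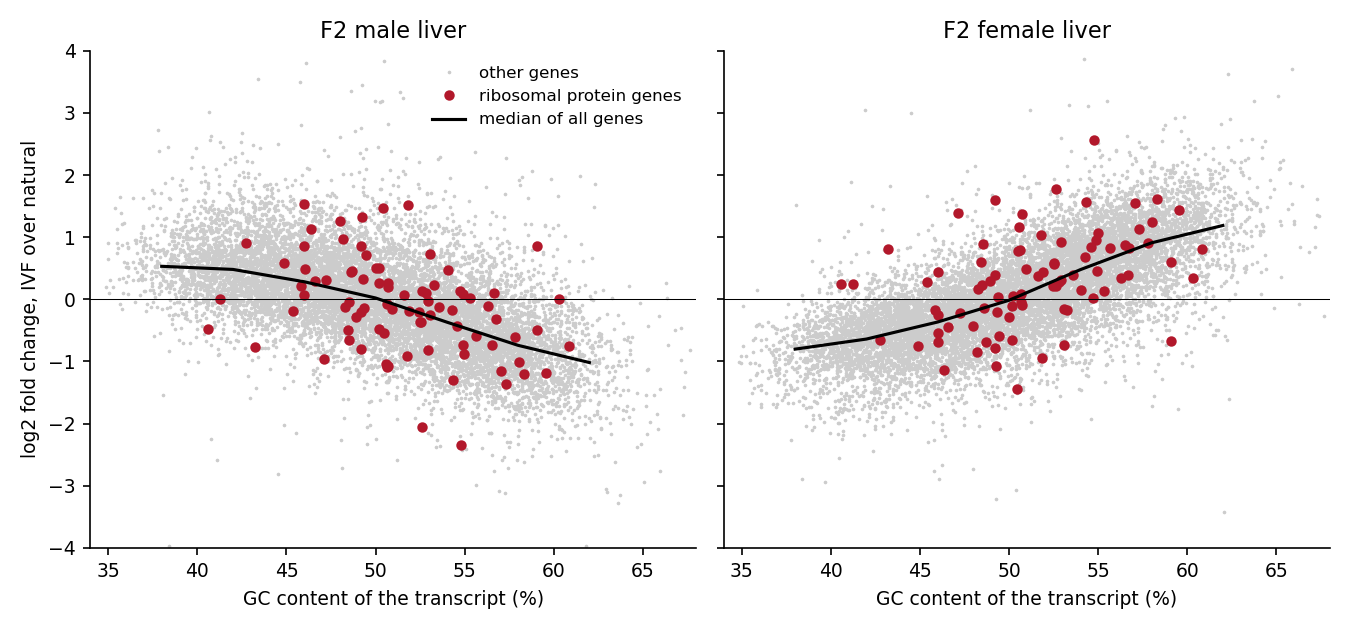
GC content of the transcript (percent, horizontal axis) against the log2 fold change of IVF over natural (vertical axis) in male liver and female liver; coloured points are ribosomal protein genes, grey points other genes (those beyond the axes not drawn), and the black line is the median of all genes. The line falls with GC in male and rises in female liver, and the members follow it with a wide scatter.

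The mitochondrial transcripts moved with the same groups. All 7 that passed the filter on low counts rose in male IVF liver (median 3.2) and fell in female IVF liver (median −2.78). With the mitochondrial share as a covariate, 19 members rose and 2 fell in male liver, 10 of them among the 35 called without it, and none was called in female liver, as for all genes. The mitochondrial shares of natural and IVF livers did not overlap in either sex, so share and conception cannot be told apart in that fit. The shares of all genes called in the male fit are not given here, so its counts are not read as a trait of the family. Summed markers of Kupffer cells ran from 194 to 340 CPM in male naturals against 121 to 306 in male IVF, and from 123 to 302 against 220 to 410 in females. Summed erythroid markers ran from 437 to 629 CPM in female naturals against 168 to 421 in female IVF. The summed exocrine pancreas markers ran from 35.9 to 52.9 against 11.04 to 40.04 CPM in males and from 8.61 to 26.4 against 15.9 to 53.9 CPM in females. In male livers 8 of the 10 pancreas markers had at most 3 counts in every library, and in female natural livers 9 did. None of the 8 Kupffer cell markers was that low in any liver group. The part of these cells in the members' changes was not tested.

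Transcription of ribosomal protein genes usually starts within a pyrimidine run, and start windows are shown for members of both liver directions to set their start sequences side by side. CTTTCC, a pyrimidine stretch, was searched for on the gene's strand within 50 bases on either side of any RefSeq start listed for the gene. It was found in 21 of the 68 members with a listed start (30.9%) and in 5.43% of 27025 genes. Genes with more listed starts had more chances to match. On either strand the shares were 33.8% and 10.3%. The following windows of 30 bases hold the motif in capitals, each from the first listed start that had it. For Rpl18, Rpl22 and Rpl38 that start lies inside the gene, downstream of its outermost start. Rpl18, Rpl15 and Rps27 were lower in male and higher in female liver.
Rpl18, chr7:45718062-45718091, plus strand: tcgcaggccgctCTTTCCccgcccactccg
Rpl15, chr14:18270965-18270994, minus strand: aaagccttcttcCTTTCCtctggcggcagc
Rps27, chr3:90213630-90213659, minus strand: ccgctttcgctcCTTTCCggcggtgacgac
Rpl4, Rpl22 and Rpl38 were higher in male and lower in female liver.
Rpl4, chr9:64173358-64173387, plus strand: caagtgacaagtCTTTCCttttcctgtggg
Rpl22, chr4:152325682-152325711, plus strand: tctgactcctccCTTTCCcgacagccgact
Rpl38, chr11:114668568-114668597, plus strand: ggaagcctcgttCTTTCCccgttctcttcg
The motif was in 4 of 14 members of the first direction (28.6%), in 3 of 10 of the second (30%), in 4 of 18 called in female alone (22.2%) and in 7 of 18 not called (38.9%). It was also in 2 of the 4 called in male alone (50%). The match describes letters, not a bound site.

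Other genes of ribosome production and use are set beside all genes, of which 16.1% rose and 18.4% fell in male liver and 25.4% rose and 23.6% fell in female liver. Of 65 ribosome biogenesis genes 22 rose (33.8%) and 5 fell (7.69%) in male liver (median 0.30), and 11 rose (16.9%) and 31 fell (47.7%) in female liver (median −0.28). Gnl2, a GTPase of large-subunit assembly, had log2 fold changes of 1.38 and −1.13 in male and female liver, Nmd3, which exports the large subunit, 1.24 and −1.19, and Bop1, of rRNA processing, −0.91 and 1.31. Of the translation initiation factors 15 of 37 rose (40.5%) and 3 fell (8.11%) in male liver, and 12 of 36 rose (33.3%) and 16 fell (44.4%) in female liver. Examples are Eif5b, which joins the subunits (1.83 and −1.66), and Eif6, which keeps them apart (−0.90 and 1.30). Of 77 mitochondrial ribosomal protein genes 15 rose (19.5%) and 14 fell (18.2%) in male liver (median 0.00), close to the shares of all genes, and 32 rose (41.6%) and 16 fell (20.8%) in female liver (median 0.12). Of 8 elongation factors 1 rose (12.5%) and 2 fell (25%) in male liver, and 2 rose and 2 fell in female liver (25% each): Eef2, the translocation factor, fell in male (−1.03) and rose in female liver (1.31). Of the RNA polymerase I genes 2 of 19 rose (10.5%) and 1 fell (5.26%) in male liver, and 8 of 20 rose (40%) and 3 fell (15%) in female liver. Of the genes of mTORC1 signalling and pyrimidine-tract mRNA control 4 of 28 rose and 4 fell in male liver (14.3% each), and 8 of 27 rose (29.6%) and 5 fell in female liver, shares near those of all genes. Eif4ebp1, an inhibitor of cap-dependent initiation, was at −0.97 in male and 1.69 in female liver, and Rps6kb1, the kinase of Rps6, at 1.01 and −1.08. Among ribosomal proteins named outside the Rpl and Rps series, Rack1 was at −0.87 and 1.15, and Fau at −0.01 and 0.23, the last not called in either. Between IVF and natural testes or ovaries at most 5 genes of these lists were called in any comparison.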

How the data were processed

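The authors extracted RNA from snap-frozen tissue, made stranded mRNA libraries (KAPA) and sequenced paired reads. The submitters' processing notes name Trimmomatic 0.32, STAR 2.3.0e, featureCounts 1.5.0, DESeq2 and the mm10 build. The deposited values are raw counts per gene, whole numbers without normalization, in 1 table per tissue and age. From 60.0% to 94.3% of low counts were even, so each mate of a pair was counted, and counts are fewer independent fragments than reads. The E18.5 table was counted on another annotation than the other 6. Limits from counts of 0 cover counting error only.

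Libraries were run on a NovaSeq6000 or a NextSeq1000, and which of these each ran on is not given in the sources used here. Groups and numbers of animals came from the sample labels (72 libraries); for female livers the series' own description gives fewer. Within each comparison genes were kept with filterByExpr, scaled by TMM and tested with the robust quasi-likelihood F test of edgeR 4.0.16 (limma 3.58.1, R 4.3.3), with Benjamini-Hochberg adjustment over all genes tested and a threshold of 0.05. CPM are scaled by TMM within each fit, so 1 library's CPM differs between comparisons. Fold changes use the default prior count of edgeR's fit, and a prior count of 2 was used for log2 CPM alone. Transcript GC content and length, the start windows and the motif search used RefSeq sequences of GRCm38.p6, the mm10 assembly, read with Python 3.11.15 and pandas 2.3.3; figures used matplotlib 3.10.9. GC content and length were found for 88 members and for 74.4% of all symbols (96.5% at E18.5). Whether libraries were the same sample deposited again was checked by chi-square between libraries of a group, and none was merged. Naturals 1 and 2 at 39 weeks were close (3.06 per gene, beside 27.8 to 63.7 for other pairs of naturals). In F2 testis so were naturals 1 and 2 (3.69) and IVF 3 and 4 (2.84), beside a median of 10.7. Whether these pairs came from different animals is not known, and they were counted as separate libraries. DESeq2 1.42.0, scaling to totals or by DESeq2's size factors, other filters, GC or length trends removed, depth and mitochondrial share as covariates, thinning, a block on the replicate number and leaving out libraries were tried as alternatives. The mitochondrial covariate, leaving out 2 livers or 2 testes of 39 weeks at once, the GC trend for the difference between the sexes and summing the most similar libraries were chosen after seeing the data.

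The members, the gene lists and the tests were chosen with earlier results of these data known. Named members are up to 3 in each direction with the smallest adjusted p among called members whose groups do not overlap, plus lists of X-linked members and paralogs, the stalk, the 5S particle, the exit tunnel and genes of Diamond-Blackfan anaemia and the 5q- syndrome. Other lists (ribosome biogenesis, initiation, elongation, RNA polymerase I, mTORC1 signalling, mitochondrial ribosomal proteins and transcripts) are given by counts with examples. On simulated counts made from the 12-week testes 58% of genes changed 1.5-fold and 80% of those changed 2-fold were recovered. For male liver these were 10% and 66%, and for female liver 20.4% and 58.3%. At most 50 genes per fold size were changed in a simulation, and they were drawn from the better counted genes. Far more genes were called in the real livers, which loosens the Benjamini-Hochberg threshold, so these shares are not the power of the liver tests.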

Additional observations from a re-analysis of the deposited data

Results flagged for a closer look

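In 3 of 97 groups of 4 to 7 libraries 1 value lay far from the others by Dixon's criterion, which chance gives in about 1 group of 20. Rps13 in female natural liver 5 was at 32.1 CPM, with the other naturals at 43.5 to 45.6. The share of Rpl36al in its pair with Rpl36a was 26.8% in E18.5 natural testis 1, with the others at 29.6% to 29.7%. The share of Rpl39l in its pair was 0.0568% in female IVF liver 5, from 2 counts, with the others at 0.

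The effect of IVF differed between male and female livers for 53 of 85 members (62.4%, beside 54% of all genes) by the test of the difference itself (edgeR's quasi-likelihood test). The difference, male minus female on the log2 scale, was 2.25 for Rpl23, 2.44 for Rpl14, 1.55 for Rpl5, −4.91 for Rps14, −2.72 for Rpl13 and −2.82 for Rpl18. Male and female livers came in separate tables and their mitochondrial shares moved in opposite directions between the groups; their part in these differences was not tested.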

How the results depend on the processing

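Of 949 values of named members under the alternatives, 902 kept their direction and side of the threshold, 45 kept the direction but not the call, and 2 reversed: Rpl22 in female liver to 0.11 (adjusted p = 0.983) with the mitochondrial share as a covariate, and Rpl5 between ovary and female liver to 0.77 (adjusted p = 0.000118) with library totals. At E18.5 the count of 2 members called was 0 past 1.5-fold, 8 with library totals, 4 with at least 10 counts in every library, 0 with the replicate block, 21 with DESeq2, and 0 with the length trend removed, with depth as a covariate or with thinned counts. Leaving out libraries gave 0 to 4 (4 without natural 1). At 12 weeks the 1 member called became 0 past 1.5-fold, 3 without a filter, 0 with the replicate block, 8 with DESeq2, 0 with the length trend removed and 3 with depth as a covariate, and 0 to 7 when libraries were left out (3 without natural 1, 7 without IVF 1, 2 without IVF 5). At 39 weeks DESeq2 and the removal of the length trend each called 1, and leaving out libraries 0. In F2 testis the 3 called became 1 past 1.5-fold, 0 with the replicate block, 6 with DESeq2 and 0 with depth as a covariate, and 1 to 5 when libraries were left out (1 without natural 1 or natural 2, 5 without IVF 7). In ovary DESeq2 called 1. With the mitochondrial share as a covariate 21 members were called in male liver in place of 35, and 0 in female liver in place of 51. The other denominator gave a difference in the ribosomal protein share of 0.254 percentage points in female liver. Most shares of all genes under these alternatives are not given, so the counts are not read as traits of the family. The causes were not tested.

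Other counts of calls stayed within 1.5 times the reported ones. Leaving out libraries gave 32 to 40 in male liver, 49 to 56 in female liver, 79 to 84 between testis and liver, 53 to 59 between ovary and liver, 86 to 88 between testis and ovary, 78 to 81 between ages and 49 to 58 for the difference between the sexes. The split of calls moved with scaling: with library totals 8 rose and 27 fell in male liver and 56 rose and 10 fell in female liver, where the median of all genes moved to −0.31 and 0.31, and 14 and 54 for the difference between the sexes. Same-numbered libraries mostly did not deviate together (correlations from −0.23 to 0.30). The exceptions over 0.1 were 2 of 4 pairs at 39 weeks and 1 of 5 in female liver. Such correlations cannot exclude a shared litter or batch, so whether the numbers pair the animals is not known. The replicate block called 40 members in male liver, 44 in female liver and 51 for the difference between the sexes. Summing the most similar libraries to 1 sample gave 2 calls in F2 testis and 0 at 39 weeks. Without naturals 1 and 2 none was called at 39 weeks and the members' median moved from −0.17 to 0.05.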
